A study of Mus musculus with 12 samples.

Results

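The cerebellum of euploid mice at postnatal day 30 (P30) was compared with the same tissue at postnatal day 15 (P15). The comparison uses 4 of the 12 arrays of the series, chosen by their titles, and covers 12422 of the 12488 probe sets, that is all except 66 Affymetrix control probe sets. For P15, total RNA of 3 cerebella was combined into 1 pool, and for P30 that of 2 cerebella. Each pool was hybridised to 2 arrays, called hybridisation 1 and 2. The other 8 arrays hold a euploid pool at P0, the day of birth, and pools of 3 cerebella from Ts1Cje mice, a segmental trisomy used as a model of Down syndrome, at P0, P15 and P30. The labels used here name neither the strain background nor the sex of the animals, and the RNA came from whole frozen cerebella.

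Most granule neurons of the mouse cerebellum are born after birth in the external granular layer, where progenitors divide in response to Sonic hedgehog from Purkinje cells. Newborn granule cells leave the cell cycle, extend axons, migrate inward along Bergmann glia and form synapses on Purkinje cells, while oligodendrocytes wrap axons in myelin. Genes of dividing progenitors and of young, migrating neurons are therefore commonly used to follow the end of this phase, and genes of synapses, myelin and mature glia to follow what comes after it. In whole-tissue RNA, fewer cells of a type and less RNA per cell cannot be told apart.

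With 1 pool at each age there is no replicate check of the euploid difference, and the paired hybridisations measure technical error alone. Signals were compared as log2(signal + 4.6), a scale that understates the difference of dim probe sets, over 7453 probe sets whose mean signal over the 12 arrays reached 20.1, and over the 5670 genes they name. A probe set was counted as higher or lower when the pools differed by a stated fold and the hybridisations of the pools did not overlap. The only test is limma's over both genotypes, which asks whether P30 differed from P15 on average over the euploid and Ts1Cje pools; "rose" and "fell" are used for genes past its threshold, an adjusted p of 0.05. The euploid P15 and P30 arrays had median signals of 30.9 to 35.8, and their ratios of the 3′ to the 5′ control probe sets were 0.889 to 0.975 for GAPDH and 1.24 to 1.43 for actin. Hybridisations of the P15 pool differed by 2-fold or more from each other at 166 probe sets (2.23%), and those of the P30 pool at 137 (1.84%).

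The tissue label was checked against defining markers. Gabra6, whose GABA-A receptor subunit marks mature granule cells, read 1717.4 and 1639.4 on the P15 arrays and 1604.4 and 1604 on the P30 arrays. Pcp2, a Purkinje cell marker, read 863.6 and 955.1 at P15 and 928.7 and 696.7 at P30. Tbr1, a transcription factor of forebrain projection neurons that also marks some cerebellar neurons, read 17 and 12.5 at P15 and 7.9 and 1.4 at P30, and its probe set did not pass the signal filter. Both cerebellar markers were far above the filter at both ages.

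At 2-fold, 135 probe sets (1.81%) were higher at P30 and 153 (2.05%) were lower, which is 101 (1.78%) and 116 (2.05%) of the 5670 genes. The genes lower at P30 included Dcx, Sox11, Igfbpl1, Insm1, Mycl and Basp1, mostly genes known from young neurons and their progenitors. Those higher included Klk6, Ttr, Kl, Folr1 and Glul, known from oligodendrocytes, the choroid plexus and astrocytes. The lower genes are named in order of size, whereas the higher ones are a choice. Scx, Colq, Patj, Smyd5, Sh3bp1, Itgb4, Ada and Pus1 also had larger differences upward than Glul. Dcx had the largest difference downward, 22.8-fold, and Klk6 the largest upward, 8.61-fold, though without hybridisation 2 of the P15 pool the upward difference of Scx (log2 4.18) was larger than that of Klk6 (2.45). A mean signal of 100 or more was reached by 34 of the 101 higher genes, 62 of the 116 lower genes and 2981 of all 5670 genes. The count of lower probe sets depended on the arrays: without hybridisation 2 of the P15 pool it was 238, and without hybridisation 2 of the P30 pool it was 247. At 3-fold, 26 genes were higher and 28 lower.

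**Figure D1:**
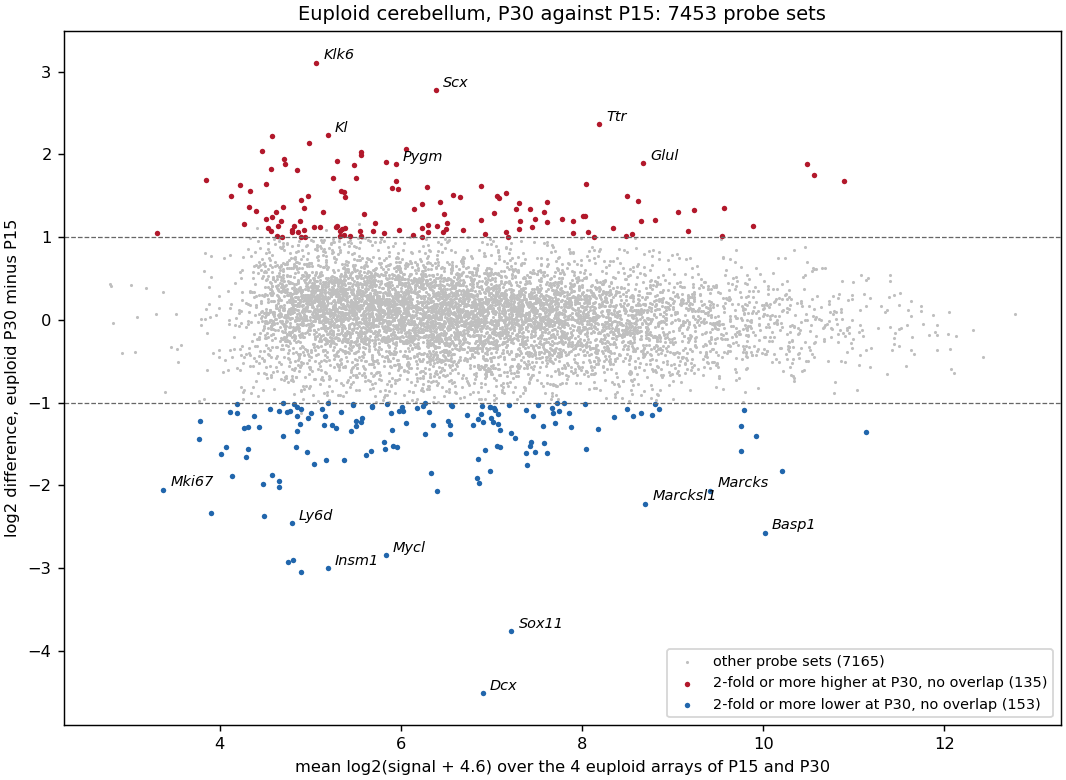
Each point is 1 of 7453 probe sets, with the mean log2(signal + 4.6) over the 4 euploid arrays of P15 and P30 on the x axis and the log2 difference P30 minus P15 on the y axis. Red and blue points are the 135 higher and 153 lower probe sets past 2-fold (dashed lines) without overlap; Dcx and Sox11 lie lowest, at -4.51 and -3.76, and Klk6 lies highest, at 3.11.

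Over both genotypes, limma with Benjamini-Hochberg adjustment called 120 probe sets higher (1.61%) and 233 lower (3.13%) at P30, which is 96 (1.69%) and 187 (3.30%) of the genes. The limma contrast uses the same euploid arrays that set the 2-fold counts, so calls shared by both are not independent support. The same holds for limma's p of genes named for the size of their euploid difference. Of the 135 probe sets higher by 2-fold in the euploid pools, 60 were among the calls, and of the 153 lower ones, 111 were. These counts depended on the Ts1Cje pools: without the Ts1Cje P30 pool limma called 52 higher and 89 lower, and without the Ts1Cje P15 pool it called 212 higher.

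Genes of immature neurons were lower at P30 as a group. Of 41 list members on the array, 39 passed the signal filter. Of these, 20 (51.3%) were lower by 1.5-fold or more without overlap and 0 were higher. Over all genes tested, 8.01% were lower and 8.24% higher by this rule, which is the background for each list count below. The median difference of the 39 was -0.64, against 0.052 over all genes, and limma over both genotypes called 18 of them lower. Dcx encodes doublecortin, a microtubule-binding protein of migrating neurons. It read 562.5 and 570.6 at P15 and 20.2 and 20.7 at P30, and at P0 it had read 1583 and 1654.4. The P15 and P30 arrays lay far apart, with a difference of -4.51 in the euploid pools, and over both genotypes it fell by 4.15 ± 0.19 on the log2 scale (SE, limma adjusted p = 3.36e-05). Sox11, a transcription factor that drives neuronal differentiation, read 512.5 and 578.5 at P15 and 34.8 and 36.9 at P30, a 13.6-fold difference (limma adjusted p = 2.33e-05). A further Sox11 probe set differed by -2.90. The related Sox4 was 1.95-fold lower, with 169 and 186.9 at P15 and 107.7 and 72.9 at P30 (limma adjusted p = 0.0249), and its other probe set differed by -2.07.

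Among other members of the list, Basp1, a membrane-bound growth-cone protein, read 2259.7 and 2812 at P15 and 421.2 and 416.5 at P30. It was 5.96-fold lower at P30 (limma adjusted p = 0.000203), and its other probe set differed by -1.09. Marcks, an actin-binding substrate of protein kinase C, read 1405.4 and 1383.1 at P15 and 325 and 332.9 at P30. Its P0 signals, 1588.7 and 1308.6, bracketed those of P15, so that most of its difference from birth lay in the interval studied here. Marcksl1, its close relative, read 826.3 and 967.1 at P15 and 168.2 and 209.1 at P30, and fell over both genotypes (limma adjusted p = 0.000219). Igfbpl1, a secreted protein of the insulin-like growth factor binding family, read 110.7 and 58.7 at P15 and 8.9 and 3.3 at P30, with P15 hybridisations that stood apart from each other but well above P30. Cd24a, a surface glycoprotein of young neurons, was 3.06-fold lower, from 307.1 and 268 to 95.2 and 86.3. Tmsb10, an actin-sequestering thymosin, was 2.99-fold lower, from 1461.5 and 1522.3 to 532.6 and 460.3.

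The group was not uniform. Dpysl3, a collapsin response mediator, was 2.90-fold lower and Dbn1, the actin-binding drebrin, 2.89-fold lower, both with P15 signals under 50. Smaller differences were seen in Tmsb4x (1.62-fold lower), Stmn2, a microtubule-destabilising protein (1.59-fold lower, limma adjusted p = 0.0666, but -0.034 with overlap on its other probe set), and the tubulin gene Tuba1a (1.56-fold lower), whose probe set may also detect other alpha-tubulins. Gap43, the classical growth-associated protein, differed by -0.015 and Tubb3, the neuronal beta-tubulin, by -0.085, each with overlapping hybridisations. Another Tubb3 probe set differed by -0.24 without overlap, and by -0.85 in the Ts1Cje pools. Mapt, which encodes tau, differed by -0.50, and Mdk, a growth factor, by 0.32. The extracellular matrix proteins Tnc and Vcan, both in this list and in that of the matrix, were 1.88-fold and 1.83-fold lower (limma adjusted p = 0.0303 and 0.0246).

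**Figure D2:**
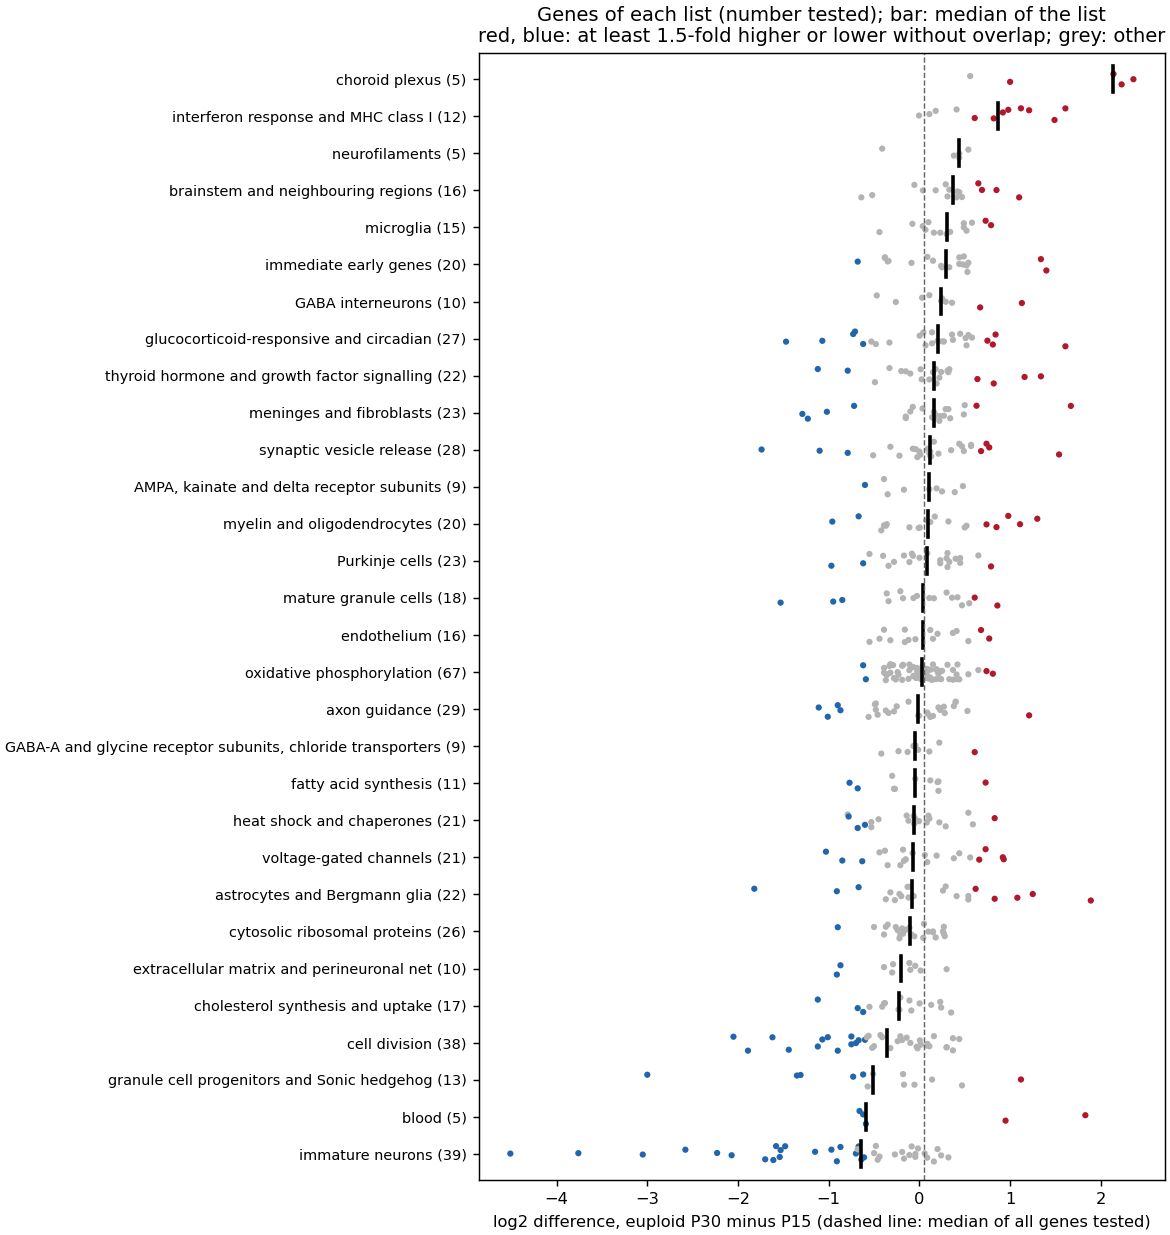
Each point is a gene of 1 list, with the log2 difference euploid P30 minus P15 on the x axis and the lists with 5 or more genes tested on the y axis, sorted by their median (black bar); points are spread vertically for legibility. Red and blue points are at least 1.5-fold higher or lower without overlap; immature neurons have the lowest median, -0.64, and the choroid plexus the highest, 2.14.

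Genes of cell division were lower at P30, at signals that were mostly dim. Of 52 list members on the array, 38 passed the filter, among them 13 (34.2%) lower by 1.5-fold or more and 0 higher. The median of the 38 was -0.36; it was -0.18 without hybridisation 1 of the P30 pool and -0.56 without hybridisation 2 of that pool. By limma over both genotypes, 6 of them were lower: Mki67, Cdk1, Kif20a, Ezh2, Cks2 and Nusap1. The promoters of 4 members that were lower by 1.5-fold or more are shown. The reason is that genes of mitosis are known to share an arrangement of short motifs upstream of their start. The 4 are a choice among the lower members. The sequences are the 250 bases before each gene's start in RefSeq, mouse build GRCm38.p6, at chr7:135716380-135716629 (minus strand) for Mki67, chr10:69352913-69353162 (minus strand) for Cdk1, chr9:70421555-70421804 (minus strand) for Ccnb2 and chr4:118437344-118437593 (minus strand) for Cdc20. Capitals mark the cell cycle homology region (TTTGAA), the CCAAT box (CCAAT) and 1 form of the E2F site (TTTCGCGC), each on either strand, so that ATTGG is a CCAAT box on the opposite strand.
Mki67: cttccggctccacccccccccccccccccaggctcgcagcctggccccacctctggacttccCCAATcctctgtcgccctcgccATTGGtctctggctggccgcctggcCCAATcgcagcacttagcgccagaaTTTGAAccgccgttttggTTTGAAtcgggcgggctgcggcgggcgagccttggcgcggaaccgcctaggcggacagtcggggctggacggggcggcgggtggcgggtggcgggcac
Cdk1: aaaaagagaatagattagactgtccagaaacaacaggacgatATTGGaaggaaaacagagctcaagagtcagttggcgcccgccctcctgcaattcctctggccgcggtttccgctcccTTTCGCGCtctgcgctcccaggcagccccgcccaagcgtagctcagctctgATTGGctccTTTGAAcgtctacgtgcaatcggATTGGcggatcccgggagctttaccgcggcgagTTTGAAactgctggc
Ccnb2: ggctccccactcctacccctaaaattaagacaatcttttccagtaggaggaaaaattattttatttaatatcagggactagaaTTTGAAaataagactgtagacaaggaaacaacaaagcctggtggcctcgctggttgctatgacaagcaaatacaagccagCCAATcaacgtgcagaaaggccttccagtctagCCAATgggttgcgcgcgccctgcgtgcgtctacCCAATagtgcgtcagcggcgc
Cdc20: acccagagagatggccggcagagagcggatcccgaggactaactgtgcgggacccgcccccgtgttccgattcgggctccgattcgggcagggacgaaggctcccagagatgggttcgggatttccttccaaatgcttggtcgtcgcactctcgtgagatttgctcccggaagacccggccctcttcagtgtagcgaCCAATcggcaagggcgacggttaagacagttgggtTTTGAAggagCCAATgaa

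In Cdc20 the homology region begins 18 bases before the start, downstream of a CCAAT box. In Cdk1 the nearer of 2 begins 15 bases before the start, also downstream of a CCAAT box. The other promoters shown differ from this. In Mki67 the regions lie farther away, at 116 and 98 bases. In Ccnb2 the region begins at 167 bases, upstream of the CCAAT boxes at 87, 54 and 21. All promoters shown hold TTTGAA, but those of the lower members Rrm2, Nusap1, Cks2 and Ezh2 held none before the start. Promoter sequences of 300 bases, which add 50 bases after the start, were found for 32 of the 38 genes. Of these, 14 (43.8%) held TTTGAA together with CCAAT on either strand. Among the 13 members lower by 1.5-fold or more, 10 had such a sequence, and 6 of these (60.0%) held the pair. The pair was present in 5.88% of the 4589 promoters of all genes tested and in 7.97% of the 27025 promoters of the RefSeq table. The E2F forms TTTCGCGC or TTTGGCGC were present in 7 of the 32 (21.9%), against 1.96% of the promoters of genes tested. These matches describe the letters of the promoters and were not related to binding or to the size of a difference.

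Mki67, which encodes the proliferation marker Ki-67, read 16.6 and 16.4 at P15 and 0.8 and 0.2 at P30, below the filter's 20.1 at both ages, and passed it through its P0 signals of 54.3 and 32.1 and those of the Ts1Cje pools. It was 4.14-fold lower at P30 (limma adjusted p = 0.00451), while another Mki67 probe set differed by 0.36. Cdk1, the kinase that drives entry into mitosis, read 24.5 and 34.5 at P15 and 6.8 and 2.7 at P30, with no overlap and a 3.70-fold difference (limma adjusted p = 0.0139). Kif20a, a kinesin of cytokinesis, read 20.8 and 26.8 at P15 and 4.6 on both P30 arrays. Ezh2, the methyltransferase of Polycomb complexes, read 91.9 and 74.8 at P15 and 30.5 and 41.3 at P30, a 2.18-fold difference. Cyclin gene Ccnb2 was 1.68-fold lower (limma adjusted p = 0.0867) and Cdc20, an activator of the anaphase-promoting complex, 1.59-fold lower (limma adjusted p = 0.116). Rrm2, a subunit of ribonucleotide reductase, was 1.52-fold lower (limma adjusted p = 0.167). Pcna, the replication clamp, differed by -0.43, Mcm2, Mcm3, Mcm4, Mcm5 and Mcm7 of the replicative helicase by -0.24 to 0.16, and Cdc45 by 0.44.

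Among transcription factors of granule cell progenitors and the Sonic hedgehog pathway, 13 of 20 members on the array passed the filter. Of these, 5 (38.5%) were lower by 1.5-fold or more and 1 (7.69%) was higher, against 8.01% and 8.24% over all genes tested. The median of the 13 was -0.51, but -0.029 in the Ts1Cje pools. The euploid median was -0.34 when the filter used only the 4 euploid P15 and P30 arrays. Over members with a mean signal of 100 or more it was -0.18. Insm1, a zinc-finger factor of neuronal progenitors, read 104.9 and 92.9 at P15 and 14.8 and 4 at P30, with no overlap and a difference of -3.00 (limma adjusted p = 0.0012). At P0 it had read 39.5 and 29, so its signal was highest at P15 among the euploid ages. Mycn, a target of Sonic hedgehog in granule cell progenitors, read 75.7 and 55.9 at P15 and 22.7 and 22.9 at P30 (limma adjusted p = 0.0142). Nhlh1, a helix-loop-helix factor of cells leaving the cycle, was 2.48-fold lower (limma adjusted p = 0.0129). Shh itself read 15.2 and 30.6 at P15 and 64.5 and 43.2 at P30, a difference of 1.12 that was 0.029 in the Ts1Cje pools (limma adjusted p = 0.268). Its receptor gene Ptch1 differed by -0.18 with overlap on the probe set used and by 0.68 without overlap on another (38.4 and 39 at P15, 59.4 and 70.7 at P30), which differed by 0.73 in the Ts1Cje pools. Atoh1, Gli1 and Gli2 were among the 7 members below the filter.

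Other genes with large falls were not in these lists. Mycl, a Myc family factor, read 161.6 and 135.3 at P15 and 32.7 and 7.5 at P30 and fell over both genotypes (limma adjusted p = 0.000203). Ly6d, a small membrane-anchored protein, read 57.4 and 63.8 at P15 but 7.7 and 6.8 at P30 and 7.7 and 7 at P0, so that it was high at P15 alone among the euploid ages. Socs3, a suppressor of cytokine signalling, was 4.07-fold lower, Nt5dc2 3.91-fold and Slco5a1, of the organic anion transporter family, 3.86-fold. Rnf2, a Polycomb ubiquitin ligase, was 3.77-fold lower on this probe set and differed by -0.21 on another, and its limma adjusted p of 0.044 did not hold under 4 of 17 settings.

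Genes of mature neurons differed little as groups, with individual genes in both directions. Of 18 granule cell genes that passed the filter, 2 (11.1%) were higher and 3 (16.7%) lower by 1.5-fold, with a median of 0.044. The shares over all genes tested were 8.24% and 8.01%. The lower genes were transcription factors: Pax6 read 304.9 and 270.9 at P15 and 79.5 and 117.1 at P30, a 2.89-fold difference (limma adjusted p = 0.0648), Zic2 was 1.93-fold lower (its other probe set differed by 0.76 with overlap) and Neurod1 1.80-fold lower. In the Ts1Cje pools the differences were smaller, -0.63 for Pax6 and -0.27 for Zic2, and 0.070 for Neurod1, and the adjusted p of Zic2 and Neurod1 were 0.291 and 0.471 by limma. Genes that rose were Snap25 of the synaptic fusion machinery (2143.3 and 2434.7 at P15, 3452.2 and 2907.1 at P30, limma adjusted p = 0.0373), the Rac exchange factor Tiam1 (limma adjusted p = 0.0405) and the carbonic anhydrase Car4 (limma adjusted p = 0.0424); their other probe sets differed by 0.29 and 0.064, with overlap. Gabrd, the extrasynaptic GABA-A delta subunit of granule cells, read 123 and 114.9 at P15 and 208.9 and 161.4 at P30 (limma adjusted p = 0.0515). Of 23 Purkinje cell genes tested, 20 lay within 1.5-fold or overlapped, among them Calb1 at -0.071 and Pcp2 at -0.17. The lower genes were the transcription factors Lhx5 (1.96-fold, from 45.4 and 48.9 to 20.1 and 23.5) and Ebf1 (1.53-fold), which differed by -0.023 and 0.067 in the Ts1Cje pools (limma adjusted p = 0.389 and 0.461). Ppp1r17, a phosphatase inhibitor of Purkinje cells, rose from 364.9 and 400.2 to 740.3 and 595.4 (limma adjusted p = 0.0244).

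Receptor subunits differed little on the probe set used for each gene. Of 9 AMPA, kainate and delta receptor genes tested, 1 passed 1.5-fold, the kainate subunit Grik5, at -0.60, and another Grik5 probe set differed by 0.079. Gria2, which sets the calcium permeability of AMPA receptors, differed by -0.17 on the probe set used. On another, Gria2 fell, with a euploid difference of -1.06 (limma adjusted p = 0.0300), and on a further one it differed by -0.025 with overlap. Another Gria1 probe set read 105.9 and 73.9 at P15 and 168.8 and 183.8 at P30, a difference of 0.96 (limma adjusted p = 0.0778). Grin2c, the NMDA receptor subunit of mature granule cells, read 541.5 and 550.5 at P15 and 636.9 and 836.1 at P30, a difference of 0.42. Grin2d, the other NMDA subunit gene that passed the filter, read 12.2 and 25.2 at P15 and 5.1 and 18.3 at P30, with overlap. Gabrd was the single member past 1.5-fold among the 9 GABA-A, glycine receptor and chloride transporter genes tested, the other 8 lying between -0.42 and 0.22.

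Synaptic vesicle and channel genes held changes in opposite directions. Stx1a, a syntaxin of the fusion complex, fell from 58.9 and 52.5 to 18.4 and 9.5, a 3.34-fold difference (limma adjusted p = 0.00451), and at P0 it had read 246.7 and 290.2. Syt5, a calcium sensor of secretion, was 2.15-fold lower (limma adjusted p = 0.0211). Vamp1, a synaptobrevin, was 2.91-fold higher, with 86.8 and 72.4 at P15 and 221.2 and 258.5 at P30, but by 0.54 in the Ts1Cje pools (limma adjusted p = 0.213). In all, 4 of 28 vesicle genes (14.3%) were higher and 3 (10.7%) lower by 1.5-fold, with a median of 0.12. Among 21 voltage-gated channel genes, 4 (19.0%) were higher and 3 (14.3%) lower. Over all genes tested, 8.24% were higher and 8.01% lower, and both lists are small. The calcium channel genes Cacna2d3 (270.6 and 245.5 at P15, 125.2 and 121.8 at P30) and Cacna1g (500 and 492.6 at P15, 268.4 and 276.9 at P30) fell, with limma adjusted p of 0.0234 and 0.0378. Potassium channel genes Kcnc1, Kcnab2 and Kcna2 were 1.90-fold, 1.91-fold and 1.58-fold higher, none past limma's threshold.

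**Figure D3:**
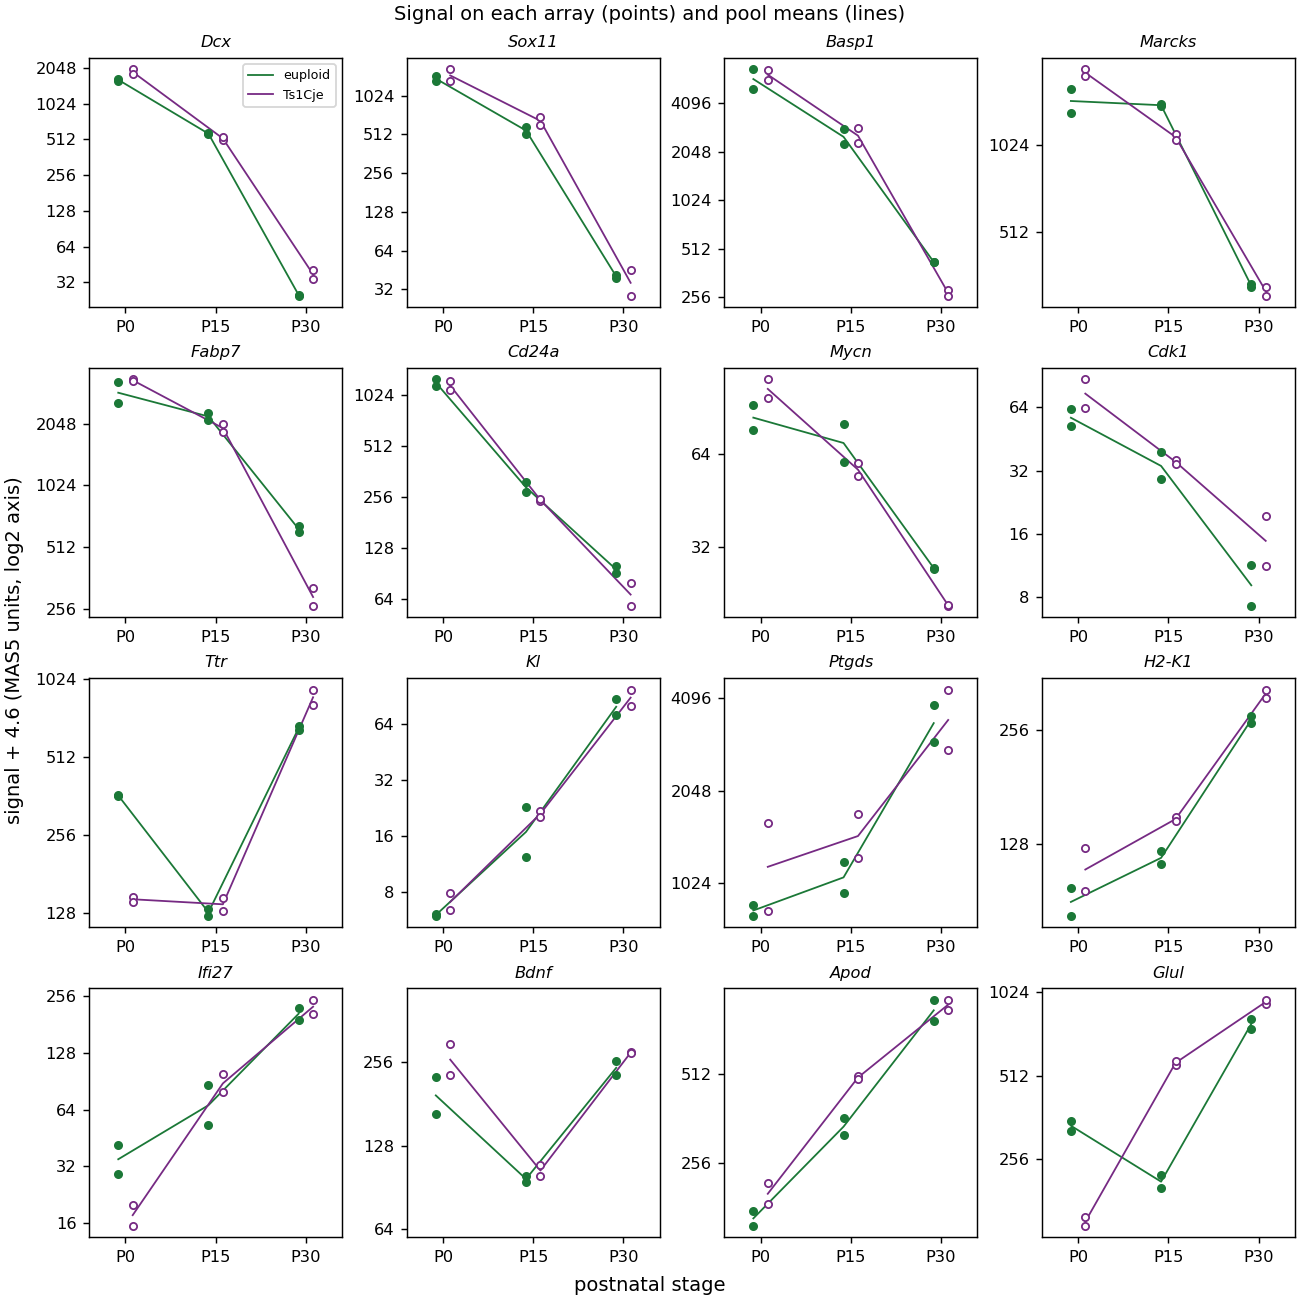
Signal plus 4.6 on a log2 axis (MAS5 units) against postnatal stage for 16 genes; green filled points are euploid arrays, purple open points Ts1Cje arrays, and lines join pool means. From P15 to P30 the euploid arrays of Dcx, Sox11, Basp1 and Marcks drop and those of Ttr, Kl, Ptgds and H2-K1 climb, without overlap, and Glul differs by 1.89 in the euploid and 0.73 in the Ts1Cje pools.

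Oligodendrocyte genes differed in both directions. Of 21 on the array, 20 passed the filter, 5 (25.0%) were higher and 2 lower by 1.5-fold, with a median of 0.098. The structural myelin genes Mbp, Mog and Mag did not pass this fold. Mbp, myelin basic protein, read 2995.1 and 3213.9 at P15 and 2421.7 and 2406.2 at P30, while its other probe set differed by 0.57. Mog differed by -0.37 and Mag by 0.12. Higher genes included Mal, a myelin proteolipid (2.16-fold, 220.1 and 212.7 at P15, 460.7 and 485.1 at P30), and Car2, a carbonic anhydrase of oligodendrocytes (1.97-fold), which differed by 0.18 and 0.30 in the Ts1Cje pools and had limma adjusted p of 0.141 and 0.091. Apod, a lipid-binding apolipoprotein, rose from 359.2 and 313.4 to 904.8 and 767.2 (limma adjusted p = 0.0119). Ugt8a, which makes the myelin lipid galactosylceramide, fell from 170.9 and 145.2 to 70.7 and 88.2 (limma adjusted p = 0.0211), and Pdgfra, the growth factor receptor of oligodendrocyte precursors, fell 1.59-fold (limma adjusted p = 0.0254), while its other probe set, at signals of 25.6 and 27.9 at P15 and 37.2 and 33.8 at P30, differed by 0.35. Klk6, a secreted protease enriched in oligodendrocytes, read 13.4 and 2.6 at P15 and 92.5 and 94.4 at P30. Its difference was 3.11, and 2.45 without hybridisation 2 of the P15 pool, and it rose over both genotypes by 2.39 ± 0.43 (SE, limma adjusted p = 0.0226).

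Of 17 cholesterol genes tested, 12 had a difference below 0, and 3 (17.6%) were lower and 0 higher by 1.5-fold. Over all genes tested, 8.01% were lower and 8.24% higher. The median of the 17 was -0.22 against -0.75 in the Ts1Cje pools. These values use the brightest probe set of each gene. Other probe sets of Mvk and Tm7sf2 differed by -1.98 and -1.29 without overlap (limma adjusted p = 0.0139 and 0.0229). That of Mvk read 43.6 and 36.2 at P15. Those of Nsdhl differed by -0.27 and -0.48, and those of Fdps, Ggps1 and Sc5d by 0.23, 0.18 and 0.35. Lss, lanosterol synthase, fell from 49.4 and 61 to 21.8 and 24 (limma adjusted p = 0.0243). Sqle, squalene epoxidase, fell from 539.4 and 547 to 351.6 and 350.4 (limma adjusted p = 0.0309), and Hmgcs1, which makes the precursor of mevalonate, fell as well (limma adjusted p = 0.0437). The fatty acid synthase gene Fasn fell 1.71-fold and the elongase Elovl6 1.61-fold (limma adjusted p = 0.0379 and 0.0269), whereas the desaturase Scd1 was 1.66-fold higher in the euploid pools and differed by -0.042 in the Ts1Cje pools. The other Scd1 probe set differed by 0.84 and 0.49.

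Astrocyte and Bergmann glia genes went both ways. Fabp7, a fatty-acid-binding protein of radial and Bergmann glia, fell from 2138.4 and 2295 to 601.3 and 645.1, a 3.54-fold difference (limma adjusted p = 0.0038). S100b, a calcium-binding protein of mature astrocytes, rose from 408.6 and 373.5 to 727.6 and 945 (limma adjusted p = 0.0332), and the neurotensin receptor gene Ntsr2 rose 2.38-fold (limma adjusted p = 0.035). Glul, glutamine synthetase, read 219.9 and 196.1 at P15 and 817.8 and 748.8 at P30, a 3.71-fold difference between arrays that did not overlap. Its difference in the Ts1Cje pools was 0.73, where P15 already read 556.9 and 573, and the limma adjusted p was 0.152; another Glul probe set differed by 0.18. Gfap and Aqp4 differed by -0.22 and -0.27. Over the 22 genes tested, 5 (22.7%) were higher and 3 (13.6%) lower by 1.5-fold, against 8.24% and 8.01% over all genes tested.

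Genes of the choroid plexus, the epithelium that makes cerebrospinal fluid and lies beside the cerebellum, were higher at P30. Of 7 on the array, 5 passed the filter, and 4 of these rose. Ttr, transthyretin, the carrier of thyroid hormone in cerebrospinal fluid, read 120.3 and 128.1 at P15, 671.4 and 644.4 at P30 and 357 and 361.3 at P0. The P30 arrays were 5.14-fold above those of P15 (limma adjusted p = 0.0088). Kl, the anti-ageing protein klotho, rose from 18.4 and 7.8 to 66.9 and 83 (limma adjusted p = 0.00408), and Folr1, a folate receptor, from 9.9 and 11.1 to 61.9 and 61.6 (limma adjusted p = 0.0244). The summed signal of the 7 genes on the array, including those below the filter, was 226 and 201 at P15 and 917 and 909 at P30. The part of this tissue in other differences was not tested. Aqp1, a defining water channel of the choroid plexus, was below the filter, at 18 and 5 at P15 and 3.3 and 18.9 at P30.

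Markers of other neighbouring tissues and cell types differed in both directions. Of 27 genes of meninges and fibroblasts on the array, 23 passed the filter, 15 had a difference above 0, and the median was 0.16. By 1.5-fold, 2 (8.70%) were higher and 4 (17.4%) lower, against 8.24% and 8.01% over all genes tested. The 4 lower ones were collagen genes, which fell: Col4a1 of basement membranes from 372.2 and 357.6 to 127.3 and 167.9 (limma adjusted p = 0.0088), Col1a1 from 192 and 195.1 to 81.6 and 78.3 (limma adjusted p = 0.0157), and Col3a1 and Col4a2 by 2.02-fold and 1.65-fold (limma adjusted p = 0.0447 and 0.0226). Another Col1a1 probe set differed by -0.55, and the other collagen genes of the list, Col1a2, Col5a1, Col5a2 and Col6a1, differed by -0.15 to 0.32, each with overlap. Ptgds, prostaglandin D synthase of the meninges and oligodendrocytes, rose from 948.5 and 1191.9 to 3907.4 and 2956.1 (limma adjusted p = 0.00205), and its other probe sets differed by 1.75 and 1.88. Brainstem and neighbouring-region genes had a median of 0.37 over 16 genes tested (0.19 over those with a mean signal of 100 or more). Of these 16, 4 (25.0%) were higher by 1.5-fold. The summed signal of the 25 on the array, including those below the filter, was 1239 and 1444 at P15 and 1761 and 1722 at P30. Globin genes Hba-a1 and Hbb-b2, whose near-identical copies a probe set may not separate, were 1.51-fold and 1.54-fold lower, while the neutrophil genes S100a8 and Camp rose (limma adjusted p = 0.014 and 0.0457) from P15 signals of at most 32.4. Of 15 microglial genes tested, 13 had a difference above 0, as had 3119 of all 5670 genes. By 1.5-fold, 2 (13.3%) were higher, the lysosomal proteases Ctss (1.66-fold) and Ctsd (1.73-fold), against 8.24% over all genes tested. Slc2a1, the glucose transporter of brain endothelium, rose 1.70-fold (limma adjusted p = 0.0379). Of the 16 endothelial genes tested, 8 were above 0 and 8 below, with a median of 0.037 whose sign turned under 5 of 11 alternatives.

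Interferon response and MHC class I genes were higher at P30. Of 25 on the array, 12 passed the filter, and 8 of these (66.7%) were higher by 1.5-fold or more and 0 lower, with a median of 0.87 in the euploid and 0.65 in the Ts1Cje pools. H2-K1, a class I heavy chain, rose from 117.6 and 108.2 to 273.8 and 262.2 (limma adjusted p = 0.00629), and H2-D1 from 173.4 and 168.7 to 316.9 and 293.2 (limma adjusted p = 0.027). Their probe sets are of a kind that can detect several class I genes, so the 2 genes cannot be told apart with certainty. Ifi27, an interferon-induced protein, rose from 48.4 and 81.7 to 218.3 and 187.6 (limma adjusted p = 0.0336), Ifitm3, an antiviral membrane protein, from 55.2 and 56.1 to 156.6 and 172.9 (limma adjusted p = 0.037), and Isg15, a ubiquitin-like modifier, 1.90-fold (limma adjusted p = 0.0279). B2m, the light chain of class I, differed by -0.0039. The summed signal of the 22 microglial genes on the array was 1492 and 1415 at P15 and 2007 and 1942 at P30. Their part in the interferon and MHC values was not tested.

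Signalling genes added a few clear changes. Bdnf, a neurotrophin induced by neuronal activity, rose from 90.3 and 94.4 to 226.6 and 254.3 (limma adjusted p = 0.00381), and had read 222.4 and 161.9 at P0, so that P15 was its lowest euploid age. Ier3, another immediate early gene, rose 2.63-fold (limma adjusted p = 0.0249), while Fos and Egr1 differed by 0.44 and 0.33. Bhlhe40, a circadian repressor, rose from 45.5 and 35.4 to 121.9 and 142.2 (limma adjusted p = 0.00451), and the circadian receptor gene Nr1d1 and the metallothionein Mt1 rose 1.76-fold and 1.79-fold. Per2 and Arntl, which also belong to the clock, were 2.10-fold and 1.64-fold lower in the euploid pools and differed by -0.079 and 0.16 in the Ts1Cje pools. The hour of dissection is not given in the labels used here. Dio2, the deiodinase that activates thyroid hormone, fell from 166.2 and 187.8 to 96 and 104.7 (limma adjusted p = 0.0498), and Fgfr1, a fibroblast growth factor receptor, rose 1.77-fold (limma adjusted p = 0.0215).

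Of the 15 genes with the largest differences upward, 6 rose over both genotypes: Klk6, Ttr, Kl, Folr1, Patj and Pygm. Patj, a scaffold of epithelial cell polarity, read 29.9 and 26.1 at P15 and 124.4 and 139.6 at P30 (limma adjusted p = 0.00157). Pygm, muscle-type glycogen phosphorylase, read 29.4 and 25.7 at P15 and 126.2 and 102.3 at P30 (limma adjusted p = 0.0145). The other 9, Scx, Colq, Smyd5, Sh3bp1, Itgb4, Ada, Pus1, Glul and Aldoart2, did not pass. Scx, the tendon factor scleraxis, had P15 hybridisations far apart: it read 7.4 and 80.3 at P15 and 182.7 and 249.4 at P30 (limma adjusted p = 0.0693). Its difference ranged from 1.36 to 4.18 over the alternatives tried, including those that leave out a hybridisation.

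The Ts1Cje pools share no array with the euploid ones and give the same ages a further time. Of the 153 probe sets lower by 2-fold in the euploid pools, 144 (94.1%) were also lower in the Ts1Cje pools and 81 by 2-fold, and of the 135 higher, 113 (83.7%) were higher and 41 by 2-fold. Over all probe sets tested, 2.56% were lower and 1.54% higher by 2-fold without overlap in the Ts1Cje pools, which is 2.72% and 1.62% of the genes. Over all 7453 probe sets, 68.7% had the same direction, and the differences correlated at r = 0.58, a description across probe sets, which are not independent replicates. All 15 genes with the largest falls were lower in the Ts1Cje pools, 14 of them by 2-fold, the exception in size being Rnf2 at -0.69. Of the 15 with the largest differences upward, 13 were higher there and 6 by 2-fold, and Sh3bp1 and Smyd5 went the other way, at -1.12 and -0.10. Neither set of pools carries a replicate pool, so a difference between the genotypes was not tested.

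**Figure D4:**
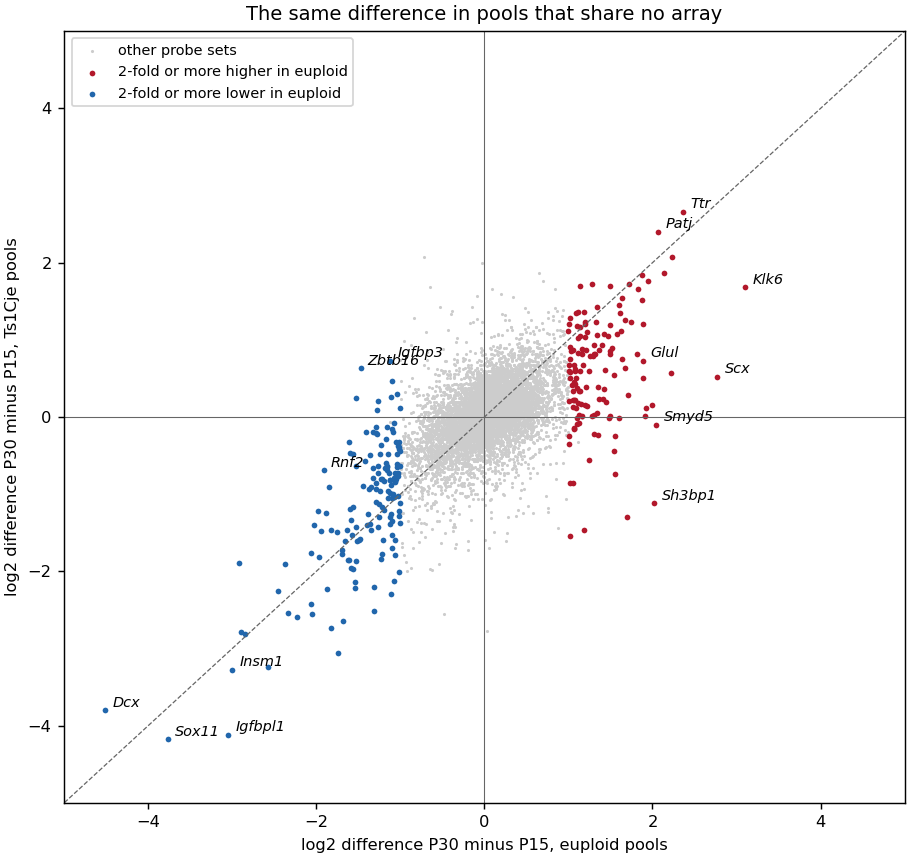
The log2 difference P30 minus P15 in the euploid pools (x axis) and in the Ts1Cje pools (y axis) for 7453 probe sets; colours mark those past 2-fold without overlap in the euploid pools, and the dashed line is equality. Most blue points (144 of 153) lie below 0 on the y axis and most red points (113 of 135) above it; Sh3bp1, Zbtb16 and Igfbp3 lie on the opposite side.

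Genes of basic metabolism stayed near 0. Of 67 oxidative phosphorylation genes tested, 2 were higher and 2 lower by 1.5-fold, with a median of 0.033, and 63 lay within that fold or overlapped. Of 26 cytosolic ribosomal protein genes, 1 passed 1.5-fold (Rps13, 1.86-fold lower). Rplp0, of the ribosomal stalk, fell from 1898 and 2101.1 to 1482.9 and 1338 (limma adjusted p = 0.035).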

How the data were processed

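Total RNA of each pool was labelled and hybridised to Affymetrix arrays, 2 per pool. The values are the intensities (signals) the authors deposited, made with MAS5 per the submitters' processing notes, whose version is not given in the sources used here; every array has a 2% trimmed mean of 100.06 or 100.05, so no further scaling was applied. Detection calls were not used, so the background of a probe set is not known. From the deposited intensities, log2(signal + 4.6) was taken, the pseudocount being the 20th percentile of all values, and probe sets with a mean over the 12 arrays below 20.1, the 40th percentile of the means, were left out. Levels were never compared between probe sets. Of 12488 probe sets, 10855 have 1 gene symbol, 396 several and 1237 none in the platform annotation, and 10839 matched RefSeq (GRCm38.p6). For a gene with several probe sets, the one of highest mean signal was used.

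Hybridisations were averaged per pool. limma 3.58.1 in R 4.3.3 (lmFit, eBayes with trend, terms for age and genotype, Benjamini-Hochberg adjustment over 7453 probe sets, two-sided) was fitted to the 6 pools, with 2 residual degrees of freedom, and was tested on simulated data. Nothing in the labels says that animals of different pools were matched, and p-values measure the spread between 6 pools. Tables and plots were made with Python 3.11.15, pandas 2.3.3 and matplotlib 3.10.9. The genes named are the 15 largest differences in each direction past 2-fold without overlap, and members of 32 gene lists that passed the filter. The comparison, the members and the lists were chosen with earlier results of these data known. Alternatives changed the pseudocount, filter, scaling, fold, arrays and limma settings.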

Additional observations from a re-analysis of the deposited data

Results flagged for a closer look

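Of the 601 genes tested that belong to a gene list or to the 30 largest differences, with sex-linked genes left out, 164 were past 1.5-fold in the euploid pools, and 7 of these went one way on every euploid array and the other way on every Ts1Cje array between P15 and P30. The 7 genes were picked out for this pattern, and with 1 pool in each group their difference between the genotypes was not tested. Over all genes tested, 8.24% were higher and 8.01% lower by 1.5-fold in the euploid pools. Of the probe sets past 2-fold there, 9 of the 135 higher and 4 of the 153 lower went the opposite way without overlap in the Ts1Cje pools.

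Zbtb16, a zinc-finger factor induced by glucocorticoids, read 101.7 and 78 at P15 and 24.4 and 34.6 at P30 in euploid pools, a difference of -1.47, and 99.7 and 89.6 at P15 and 156.2 and 140.8 at P30 in Ts1Cje pools, a difference of 0.63. Sh3bp1 differed by 2.02 in the euploid pools and by -1.12 in the Ts1Cje pools, where its P15 hybridisations read 41.1 and 86.9. Igfbp3, a binding protein of insulin-like growth factors, differed by -1.12 and 0.73, and another of its probe sets by -0.25 in the euploid pools. Neurod1, the granule cell factor, differed by -0.85 and 0.070, and Hoxa5, a homeobox gene of the hindbrain and spinal cord, by 0.85 and -0.80 at signals of at most 30.5. Alas2, the erythroid enzyme of haem synthesis, differed by -0.66 and 0.39, and Uqcrc2, of respiratory complex III, by -0.59 and 0.14.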

How the results depend on the processing

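The direction of all 30 genes with the largest differences held under every alternative tried. Their choice largely fixed this outcome. They were picked for large differences without overlap, which a change of pseudocount or filter or the loss of 1 hybridisation cannot reverse. Counts moved more. With a pseudocount of 16, 77 probe sets were higher and 92 lower by 2-fold in the euploid pools; with no filter 292 were higher; with a mean signal of 100 or more, an alternative added after seeing the data, 49 were higher and 74 lower; at 1.5-fold 615 and 583, and at 3-fold 32 and 38. Leaving out 1 hybridisation gave 175 to 201 higher and 154 to 247 lower, and the cause was not tested. Quantile normalisation gave 107 higher and 173 lower, so that the share higher among the calls was 38.2% in place of 46.9%. limma over both genotypes called 75 higher and 124 lower with no filter, 60 and 124 at a mean signal of 100 or more, 66 and 117 without the trend, 228 higher with the P15 and P30 pools alone, and, leaving out 1 hybridisation, 83 to 144 higher and 163 to 252 lower. Without the Ts1Cje P30 pool it called 52 and 89, and without the Ts1Cje P15 pool 212 higher. Of 459 alternative values of the 30 named genes, 6 lost the call (4 of them Rnf2, and 1 each Socs3 and Folr1) and 16 gained one. List medians near 0 changed sign, among them those of AMPA, NMDA, endothelial, fatty acid, astrocyte and mature granule cell genes.

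With the replicate block (arrays as separate values, the pool as block, the hybridisation number as a term) limma called 392 higher and 506 lower. The correlation it estimated between hybridisations of a pool was 0.153, so technical repeats counted nearly as separate samples. Hybridisation numbers were not taken to pair the pools, because not every pair of pools had differences between hybridisations that correlated above 0.1: 7 of 15 did, r ranged from -0.12 to 0.35, and it was 0.015 for the P15 and P30 euploid pools.

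The limits are 1 pool per age, 2 or 3 animals per pool, and dim probe sets without detection calls.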

Other observations

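Of 29 axon guidance genes tested, 4 (13.8%) were lower and 1 (3.45%) higher by 1.5-fold in the euploid pools. The shares over all genes tested were 8.01% and 8.24%. Plxna2, a semaphorin receptor of granule cells, fell from 117.3 and 107.1 to 51.4 and 47.5 (limma adjusted p = 0.0419). The netrin receptor gene Unc5c read 614.2 and 614 at P15 and 349.7 and 306.8 at P30 (limma adjusted p = 0.147). Sema7a, a membrane-anchored semaphorin, was 2.31-fold higher, from 306.1 and 273.6 to 726.8 and 625.8, and differed by 0.39 in the Ts1Cje pools (limma adjusted p = 0.0999); its other probe set differed by -0.042 in the euploid pools, with overlap.

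Among 21 chaperone genes, 1 (4.76%) was higher and 3 (14.3%) lower by 1.5-fold, against 8.24% and 8.01% over all genes tested. Pdia3 and Hspd1, chaperones of the endoplasmic reticulum and of mitochondria, fell 1.71-fold and 1.51-fold (limma adjusted p = 0.0244 and 0.0432), although another Hspd1 probe set differed by -0.15 with overlap, and the inducible Hspa1a rose from 62.2 and 49.2 to 102.2 and 101.7 (limma adjusted p = 0.0328). The neuropeptide genes Npy and Cck were 2.19-fold and 1.59-fold higher in the euploid pools, with limma adjusted p of 0.107 and 0.119. The neurofilament genes Nefl, Nefm and Nefh differed by 0.44, 0.54 and 0.44 in the euploid pools and by -0.86, -0.79 and -0.23 in the Ts1Cje pools, a contrast that was not tested. Of the 5 genes of their list, 0 passed 1.5-fold in the euploid pools and 1 had a difference below 0, at -0.41. The summed euploid signal of the list was 1754 and 1862 at P15 and 1719 and 1533 at P30.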
